A study of Mus musculus with 6 samples.

Results

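Cytosolic ribosomal protein genes were followed in NIH3T3, a line of mouse embryonic fibroblasts, with and without overexpression of a circular RNA. A gene was taken when its Ensembl ID mapped in the mouse GENCODE annotation to a protein-coding symbol beginning with Rpl or Rps and a number, or with Rplp or Rpsa. The Rps6k kinase genes, Rps19bp1 and names ending in -ps and digits, which mark pseudogenes, were left out, although 5 of the 157 rows so named are annotated as protein-coding. This rule used no measured value and found 84 of the 24938 listed genes, 51 of the large subunit (Rpl and Rplp symbols) and 33 of the small subunit (Rps symbols and Rpsa). The annotation holds 85 such genes, and the remaining one, Rpl10l, had no row in the files used here.

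RNA was sequenced from 6 libraries. The 3 control libraries came from cells labelled wild type and the 3 others from cells labelled as overexpressing a fusion circular RNA related to AML1-ETO, a leukaemia fusion of the human transcription factor genes RUNX1 and RUNX1T1. Circular RNAs are transcripts closed into a ring. The single comparison asks how ribosomal protein mRNA levels differ between these groups. The titles mark the wild type libraries with the letter V and the others with C, with no key, so whether the controls carry an empty vector is not stated. The labels also give neither the overexpression vector, nor whether the overexpressing cells are 1 clone, nor whether the libraries of a group are separate cultures. With these labels, what the procedure did and what the circular RNA did cannot be told apart, and a p-value here reflects only how far the 6 libraries scatter, which can be technical. The circular RNA could not be matched to a row, so the labels were not checked against it.

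Ribosomal proteins and ribosomal RNA form 2 subunits. The small subunit reads the mRNA, and the large subunit joins the amino acids and carries the stalk that recruits elongation factors. Most core proteins are present once in every ribosome, and their genes are expressed together and at very high levels in dividing cells such as fibroblasts. Their mRNAs typically start with a C followed by a run of pyrimidines, the 5′ terminal oligopyrimidine (TOP) tract, through which mTORC1 and the RNA-binding protein LARP1 control how strongly they are translated. How strongly an mRNA is translated is not read by RNA sequencing of whole cells.

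The tract can be read from the genome, and 64 of the 84 genes (39 large, 25 small) had a start in the RefSeq promoter table for GRCm38.p6. Shown are the 15 bases before and the 15 from the annotated first base, 5′ to 3′ on the strand of the gene. Capitals mark the longest unbroken run of C or T that touches the stretch from 5 bases before to 5 bases after that first base, the leftmost where runs tie. The first pair carries the highest and the lowest difference between the groups in the large subunit, the second pair genes with known roles in elongation and in growth signalling, the next 3 a gene with 2 relatives, and Rpl37 a start with a short run.
Rpl35 (chr2:39005117-39005146, - strand): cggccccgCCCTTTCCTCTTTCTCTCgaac
Rpl14 (chr9:120571502-120571531, + strand): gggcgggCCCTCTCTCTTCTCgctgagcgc
Rplp2 (chr7:141447636-141447665, + strand): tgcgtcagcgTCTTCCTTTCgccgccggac
Rps6 (chr4:86857353-86857382, - strand): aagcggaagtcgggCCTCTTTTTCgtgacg
Rps27 (chr3:90213634-90213663, - strand): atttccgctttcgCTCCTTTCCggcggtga
Rps27l (chr9:66946071-66946100, + strand): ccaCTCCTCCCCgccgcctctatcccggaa
Rps27rt (chr9:114982725-114982754, - strand): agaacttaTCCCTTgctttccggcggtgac
Rpl37 (chr15:5116598-5116627, + strand): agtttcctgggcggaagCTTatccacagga

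A run of at least 8 pyrimidines lay at a start of 24 of the 64 matched genes (37.5%), against 11.5% of 17492 protein-coding genes in the same table. The subunits gave similar shares, with 15 of 39 large (38.5%) and 9 of 25 small subunit genes (36.0%). The strict form, a C at the first base and 4 further pyrimidines, was found in 14 of 64 (21.9%) against 2.67% of all. The runs shown above span 18 bases in Rpl35, 14 in Rpl14 and only 3 in Rpl37. An annotated first base that is off by a few bases can hide the strict form. The run is less sensitive, as it may touch any base from 5 before to 5 after that first base. A larger offset can hide it too, so a short run does not show that the mRNA lacks a tract. Motifs were counted on either strand in the table's 300 bases around the start, most of them upstream. The ETS-type letters CGGAAG were in 67.2% of the matched genes and in 23.5% of all protein-coding genes. AAGATGG, the core of the YY1 motif, was in 15.6% against 7.18%. The GC box GGGCGG was in 60.9% against 49.2%, and the TATA box TATAAA in 10.9% against 14.8%. These are matches of letters and not shown binding.

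Each deposited value is in FPKM, a gene's reads divided by its length and by a scale of the library. That scale lay within 0.0066% of a median-of-ratios size factor of the recovered reads in every library, a scaling that no source used here states. Divided by the total reads it ran from 0.979 to 1.02 times its mean over the 6 libraries. Whole reads recovered from these values came to between 16969814 and 21843803 per library. Ribosomal protein genes held 9.46%, 9.59% and 10.1% of the reads in the wild type libraries and 9.63%, 10.2% and 10.7% in the overexpression libraries (replicates 1, 2 and 3 in turn), so the groups overlapped. The large subunit accounted for 5.57% to 5.99% of reads in wild type and 5.71% to 6.27% with overexpression, and the small subunit for 3.89% to 4.16% and 3.92% to 4.40%. 

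The libraries did not separate by labelled group on the leading principal component. Wild type replicates 1 and 2 were nearly identical, with a chi-square per gene of 1.46 where counting error alone gives about 1 and the remaining pairs gave 5.15 to 25.1. Over the ribosomal protein genes, which have far more reads, the same measure was 10.3 for that pair and 39.4 to 317 for the remaining pairs. On that component (35.5% of the variance) wild type replicate 3 lay at 11.2 beside overexpression replicate 1 at 16.6, and wild type replicates 1 and 2 at -13.9 and -13.3. Fibroblast markers were expressed, with 10 of 11 passing the filter on low values (FPKM above 1 in at least 3 libraries) and a summed level of 2635 to 3185 FPKM in wild type and 2370 to 2913 FPKM with overexpression. None of the 10 passed the test (0 at an unadjusted p below 0.05), and their median log2 fold change was -0.16. Of the defining markers of other cell types, the sums reached at most 8.79 FPKM for epithelial, 1.08 for endothelial, 6.07 for erythroid and 25.6 for blood cells, and 1 gene, Lyz2, held up to 25.5 FPKM of the latter. In such bulk libraries fewer cells of a type and less RNA per cell cannot be told apart.

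As a class these genes were among the most abundant mRNAs of the fibroblasts. Of the 83 that passed the filter, 78 lay among the 612 genes with the highest mean FPKM (the top 5% of 12222 tested genes), and 60 among the top 1% (123 genes). The median level was 552 FPKM over the large and 791 FPKM over the small subunit. Above 1000 FPKM were 15 large and 14 small subunit genes, and below 100 FPKM 8 and 1. Where 3 values of a group are given below, they stand in the order of replicates 1, 2 and 3.

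**Figure D1:**
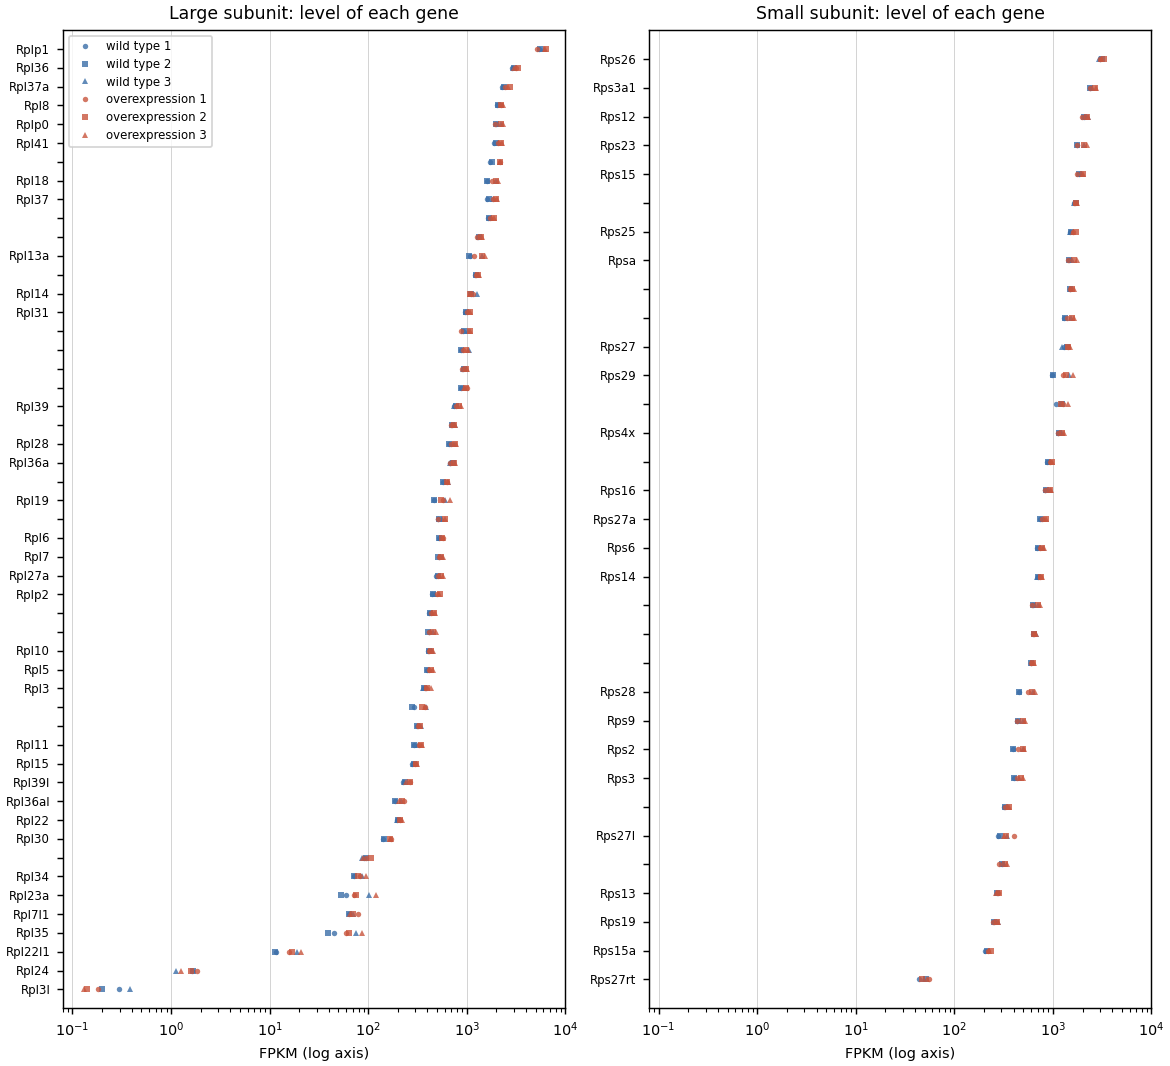
Level of each of the 84 ribosomal protein genes in each library, in FPKM on a log axis, large subunit on the left and small subunit on the right, ordered by mean, with the genes named in the text labelled. Each point is 1 library, with blue for wild type, red for overexpression and a shape per replicate number. Most genes lie above 100 FPKM, the 6 points of a gene mostly overlap, and the widest gaps among tested genes are at Rpl23a, Rpl35 and Rpl22l1.

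The stalk of the large subunit gave both the highest gene and a mid-range one. Rplp1 pairs with Rplp2, and copies of this pair sit on Rplp0 at the base of the stalk, where elongation factors dock. Rplp1 was listed at 5455, 5571 and 6033 FPKM in the wild type libraries and 5144, 6382 and 6184 FPKM in the overexpression libraries. Overexpression replicate 1 was the lowest and overexpression replicate 2 the highest, so the groups overlapped. Rplp0 was at 1966, 1976 and 2247 FPKM in the wild type libraries and 1957, 2216 and 2362 FPKM in the overexpression libraries, again with overexpression replicate 1 lowest. Rplp2 (ENSMUSG00000025508, chr7:141447370-141451585 in mm10) was at 443, 450.0 and 477 FPKM in the wild type libraries and 495, 530.3 and 518 FPKM in the overexpression libraries. Here every overexpression library stood above every wild type library. The means of Rplp2 were 457 ± 18.3 FPKM in wild type and 514 ± 18.2 FPKM with overexpression (SD, n = 3), and its log2 fold change was 0.17 (SE 0.06), with a limma adjusted p of 0.842. Its unadjusted limma p of 0.031 was the smallest of the 83 genes. The estimate for Rplp1 was 0.05 (SE 0.10) and for Rplp0 0.08 (SE 0.09).

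Below Rplp1, the highest large subunit genes were Rpl36, Rpl37a, Rpl8 and Rplp0. Rpl8, a core protein beside the site of peptide bond formation, was at 2023, 2055 and 2252 FPKM in the wild type libraries and 2248, 2238 and 2327 FPKM in the overexpression libraries. Rpl37a, a zinc-binding protein, was at 2294, 2394 and 2361 FPKM in the wild type libraries and 2458, 2765 and 2615 FPKM in the overexpression libraries, and all 3 overexpression libraries were above all 3 wild type ones. Rpl36 was at 2879, 3038 and 2973 FPKM in the wild type libraries and 3199, 3285 and 3020.5 FPKM in the overexpression libraries, with overexpression replicate 3 inside the wild type range. Their log2 fold changes of 0.11, 0.15 and 0.10 had standard errors of 0.07, 0.07 and 0.06 and limma adjusted p-values of 0.843, 0.842 and 0.843.

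In the small subunit the highest was Rps26, a protein at the channel where mRNA leaves, at 3025, 3142 and 2905 FPKM in the wild type libraries and 2996, 3331 and 3054 FPKM in the overexpression libraries. The groups overlapped, and the log2 fold change was 0.05 (SE 0.07). Rps3a1 followed at 2389.7, 2402 and 2520.0 FPKM in the wild type libraries and 2384, 2658 and 2733 FPKM in the overexpression libraries. Rps12 was at 2057, 2056 and 2258 FPKM in the wild type libraries and 1994, 2231 and 2282 FPKM in the overexpression libraries, Rps23, a protein of the decoding centre, at 1737, 1755 and 2048 FPKM in the wild type libraries and 1766, 2083 and 2198 FPKM in the overexpression libraries, and Rps15 at 1825, 1852 and 1969 FPKM in the wild type libraries and 1747, 2000.3 and 2024 FPKM in the overexpression libraries. In Rps3a1, Rps12 and Rps15 the lowest value of all was in overexpression replicate 1, and in these 3 genes and Rps23 the highest was in overexpression replicate 3. None of the 5 had separate groups, and their estimates ran from 0.03 (Rps12, Rps15) to 0.12 (Rps23).

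The lowest large subunit genes were Rpl24 and 2 paralogs, which are copies of a core gene that often have a restricted role. Rpl3l, which replaces Rpl3 in striated muscle, was the lowest of all. It was listed at 0.297, 0.199 and 0.381 FPKM in the wild type libraries and 0.180, 0.141 and 0.130 FPKM in the overexpression libraries, from 7.17 reads a library on average, and was not tested. Rpl24, a core gene, was far lower than most of its class at 1.61, 1.68 and 1.12 FPKM in the wild type libraries and 1.83, 1.58 and 1.25 FPKM in the overexpression libraries, from a mean of 30.7 reads. A transcript annotated as Gm28037 covers 47.0% of its exons on the same strand, and the part of this overlap in the low value was not tested. Rpl22l1, a paralog of Rpl22, was at 11.6, 11.4 and 18.9 FPKM in the wild type libraries and 15.9, 17.0 and 20.6 FPKM in the overexpression libraries. Wild type replicates 1 and 2 were lowest, wild type replicate 3 lay among the overexpression libraries, and the estimate of 0.36 (SE 0.20) had a 95% interval from -0.11 to 0.83. Rpl22 itself was steadier at 194, 199.8 and 196 FPKM in the wild type libraries and 211, 208 and 218 FPKM in the overexpression libraries, with the groups apart and an estimate of 0.11.

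The remaining paralogs were set beside their parents. Rpl39l, a copy of Rpl39 best known from testis, was at 226, 238 and 233 FPKM in the wild type libraries and 267, 269 and 242 FPKM in the overexpression libraries. Rpl39, which lines the tunnel through which the new protein leaves, was at 739, 777 and 737 FPKM in the wild type libraries and 786, 829.9 and 873 FPKM in the overexpression libraries. Both had every overexpression library above every wild type library, with estimates of 0.16 and 0.14 and limma adjusted p-values of 0.842. Rpl7l1, at 63.4, 64.1 and 69.8 FPKM in the wild type libraries and 78.1, 70.3 and 65.4 FPKM in the overexpression libraries, was highest in overexpression replicate 1, while Rpl7, at 519, 513 and 558 FPKM in the wild type libraries and 523, 545 and 572 FPKM in the overexpression libraries, was highest in overexpression replicate 3. Their estimates were 0.11 and 0.04. Rpl36al had means of 197 ± 14.2 FPKM in wild type and 220.0 ± 13.3 FPKM with overexpression (SD, n = 3). Its parent Rpl36a had means of 695 ± 30.2 FPKM in wild type and 726 ± 46.8 FPKM with overexpression (SD, n = 3), and the groups overlapped in both genes.

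Rps27 and its 2 relatives differed in level and in order. Rps27 was at 1305, 1397 and 1229 FPKM in the wild type libraries and 1409, 1428 and 1503 FPKM in the overexpression libraries, with separate groups. Rps27l, a paralog known as a p53 target, was at 280.1, 289 and 341 FPKM in the wild type libraries and 404, 331 and 318 FPKM in the overexpression libraries, with overexpression replicate 1 the highest. Rps27rt, an intronless copy of Rps27, was at 43.7, 51.8 and 49.0 FPKM in the wild type libraries and 54.7, 46.9 and 52.4 FPKM in the overexpression libraries, from 361 reads a library on average. The estimates were 0.14, 0.21 and 0.09, with standard errors of 0.07, 0.12 and 0.09. Their start sites, printed above, also differ, with marked pyrimidine runs of 9, 9 and 6 bases. The marked runs of Rps27l and Rps27rt end before the annotated first base. The strict form, a C at the first base and 4 further pyrimidines, was found in Rps27 and Rps27rt but not in Rps27l. In Rps27rt it lies in an unmarked run, as long as the marked one, that begins at the first base. As Rps27 and Rps27rt are near-identical copies, how the authors' counting split their reads is uncertain.

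The order of levels depended on the length by which reads were divided. Whole reads were recovered with the annotated exon length for 54 of the 84 genes and with a length found by search for 30. That length was 0.656 to 9.82 times the gene's median protein-coding transcript. Adding up the exons of every annotated form can only make a length longer. Why some ratios were below 1 was not tested. Divided by the median coding transcript instead, Rplp1 stayed the first of 84. Rps15a moved from rank 72 to 24 and Rps19 from 70 to 31, while Rps26 moved from 2 to 28. Rps15a, listed at 206, 216 and 213 FPKM in the wild type libraries and 217, 238 and 227 FPKM in the overexpression libraries, is therefore among the lowest small subunit genes by FPKM only. Comparisons of 1 gene between libraries are not touched by this.

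No ribosomal protein gene passed the threshold of an adjusted p of 0.05 (limma on log2(FPKM + 1), Benjamini-Hochberg over 12222 genes), and neither did any gene, so the background was 0%. The smallest adjusted p was 0.842 among the 83 tested ribosomal protein genes and 0.260 among all. At an unadjusted p below 0.05 there were 2 of the 83, Rplp2 and Rpl37, both higher with overexpression, beside 2.86% of all tested genes in that direction and 632 genes in all. Limma-voom on the recovered reads also called 0 genes, with 755 of 14473 genes and 5 of the 83 at an unadjusted p below 0.05. Under library weights estimated by limma the call turned. Wild type replicates 1, 2 and 3 had weights of 2.16, 2.57 and 0.236. Overexpression replicates 1, 2 and 3 had 0.278, 4.64 and 0.593. With these weights 2241 genes passed, among them 47 of the 83 (56.6%, 30 large and 17 small). All 47 were higher, beside 11.1% of all tested genes in that direction and 18.3% in either. Among genes with a mean above 100 FPKM, 60.0% of the 75 ribosomal protein genes and 37.4% of the 377 remaining genes passed under these weights. Of the 10 fibroblast markers 2 passed under these weights. The weights were themselves estimated from these 6 libraries. On the wild type side they rest mostly on the nearly identical replicates 1 and 2, so the calls may be too many.

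The estimates were small and, with the deposited scaling, nearly all above 0. The median log2 fold change was 0.11 over the 50 tested large subunit genes and 0.09 over the 33 small subunit genes, beside 0.008 over all tested genes. With the deposited scaling 49 of 50 large and 33 of 33 small subunit genes had an estimate above 0, beside 53.2% of all, but after quantile normalization only 38 and 16 had. After scaling every library to the same FPKM sum, 39 and 23 had, with medians of 0.04 and 0.03 where the median of all genes was -0.05. Quantile normalization gives every library the same set of values, and 60 of the 123 highest genes belong to this class. It therefore removes part of any shift shared by the class, and values after it, here and below, cannot decide whether the class shifted. With the deposited scaling estimates ran from -0.06 (Rpl14) to 0.42 (Rpl35) in the large subunit, and the highest in the small subunit was 0.31 (Rps29). The median standard error was 0.07 and 0.08. Leaving out overexpression replicate 1 raised the small subunit's median to 0.14, while without overexpression replicate 3 it was 0.06. Without wild type replicate 3 the medians were 0.14 and 0.12, and with wild type replicates 1 and 2 averaged to 1 library 0.10 and 0.08.

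The 95% interval excluded a 1.5-fold difference of FPKM + 1 for 78 of the 83 genes (47 large, 31 small) and a 2-fold difference for 82. The 5 genes whose interval reached 1.5-fold were Rpl22l1, Rpl23a and Rpl35 of the large and Rps28 and Rps29 of the small subunit. These counts are for the deposited scaling only. The fit enters the nearly identical wild type replicates 1 and 2 as separate libraries, so the intervals may be too narrow.

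**Figure D2:**
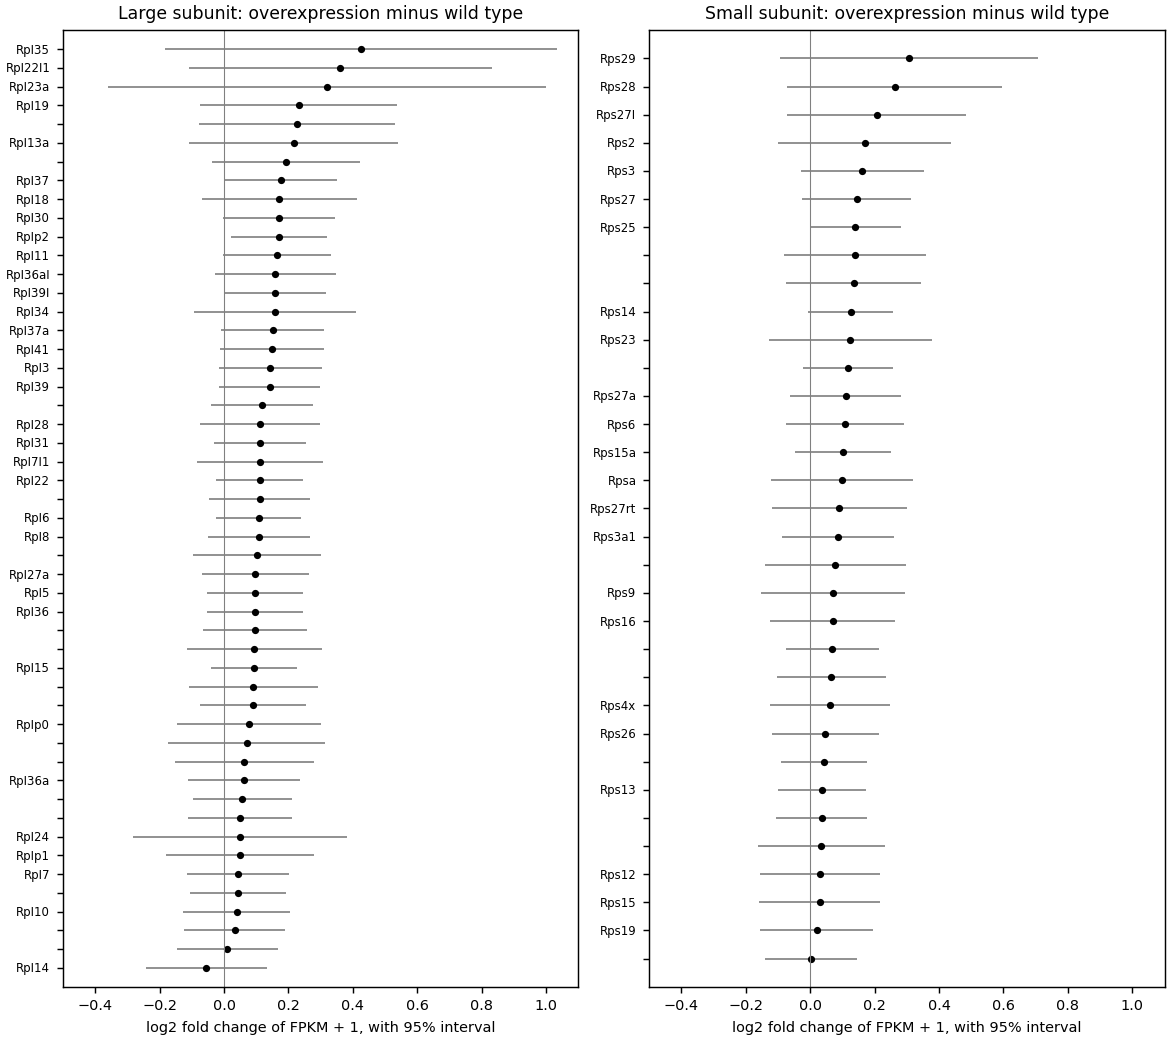
Log2 fold change of FPKM + 1, overexpression minus wild type, with its 95% interval from limma, for the 50 large (left) and 33 small (right) subunit genes tested, with the genes named in the text labelled. With the deposited scaling 82 of the 83 points lie right of 0 (38 of 50 and 16 of 33 after quantile normalization), and all intervals but those of Rplp2 and Rpl37 cross 0.

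The 2 subunits did not stand apart from each other. The large subunit's median estimate was 0.02 higher, and the SD within groups of the per-library difference between the mean deviations of the subunits was also 0.02. In that difference wild type replicates gave -0.01, -0.03 and 0.009 and overexpression replicates 0.03, 0.002 and 0.006. After quantile normalization the difference between the medians was 0.04, with 0.04 for the large subunit and 0 for the small. Both subunits ranked the libraries in the same order. Mean deviations of the large subunit from each gene's mean were -0.12, -0.10 and 0.04 in the wild type and 0.0006, 0.07 and 0.12 in the overexpression libraries, in replicate order. In the small subunit they were -0.11, -0.07 and 0.03, then -0.03, 0.07 and 0.11. In both subunits wild type replicate 3 stood above overexpression replicate 1, so the groups overlapped. Of the 83 genes 60 (34 large, 26 small) had their highest value in overexpression replicate 3, and 46 had their lowest in wild type replicate 1. Overexpression replicate 1 was lowest in 15 genes, 9 of them of the small subunit. The like shares of all tested genes are not given here. In overexpression replicate 3, 43 of 50 large and 30 of 33 small subunit genes lay above their mean, beside 6171 of 12222 tested genes. Genes of the class shift together within a library, so these counts are not separate results.

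**Figure D3:**
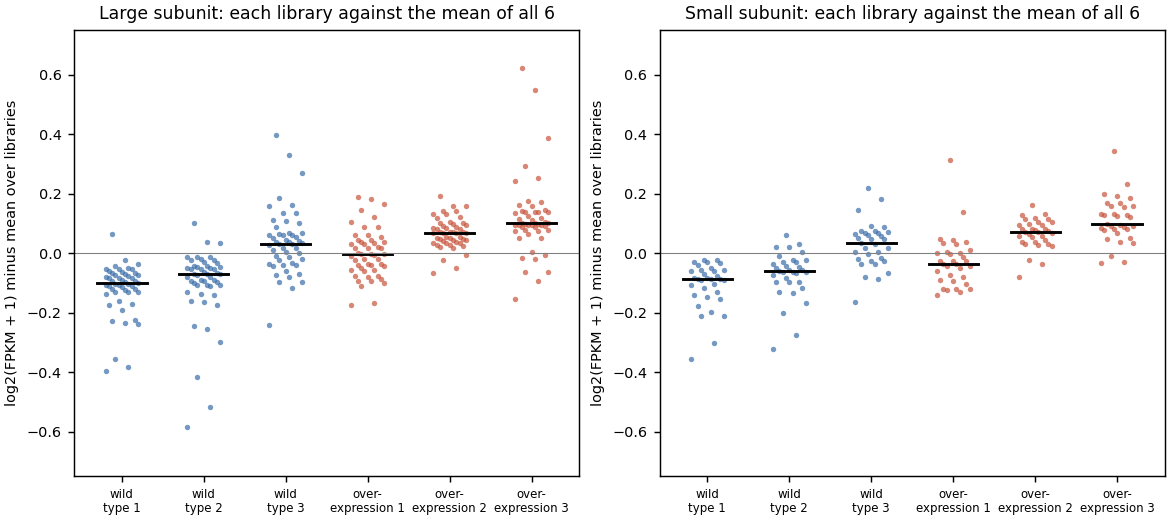
Deviation of log2(FPKM + 1) from the gene's mean over the 6 libraries, for the 50 large (left) and 33 small (right) subunit genes tested. Each point is 1 gene and each black bar the median of a library, with blue for wild type and red for overexpression. Wild type replicates 1 and 2 lie lowest, overexpression replicates 2 and 3 highest, and wild type replicate 3 lies above overexpression replicate 1 in both subunits.

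The spread among the wild type libraries was as wide as the difference between the groups. Wild type replicate 3 was above both wild type replicates 1 and 2 in 62 of the 83 genes (74.7%), beside 43.6% of all tested genes, and the median log2 difference was 0.12 against 0.005. Every overexpression library was above every wild type library in 18 genes (13 large, 5 small), which is 21.7% of the 83, beside 6.81% of all tested genes. The reverse was found in 0, beside 4.69% of all. This count rested on the deposited scaling, and other scalings gave fewer genes above. At equal upper quartiles 10 of the 83 were above and 0 below, beside 4.72% and 6.19% of all tested genes. At equal FPKM sums 3 were above (3.61%) and 0 below, beside 2.32% and 9.84% of all. After quantile normalization 2 were above (2.41%) and 4 below (4.82%), beside 5.83% and 4.58% of all. The large subunit genes were Rpl3, Rpl6, Rpl11, Rpl15, Rpl22, Rpl30, Rpl31, Rpl37, Rpl37a, Rpl39, Rpl39l, Rpl41 and Rplp2, and the small subunit genes included Rps14, Rps15a, Rps25 and Rps27. None of the 18 passed the test.

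Other abundant genes had a like median but another order of libraries. Among genes with a mean above 100 FPKM, the 75 ribosomal protein genes had a median log2 fold change of 0.10 with 98.7% above 0, and the 377 remaining genes a median of 0.10 with 78.5% above 0. After quantile normalization these shares were 61.3% and 58.6% and the medians 0.01 and 0.02. At or below 100 FPKM the median was 0.005 over 11762 genes. The remaining abundant genes had median deviations of 0.09, 0.06 and -0.006 in overexpression replicates 1, 2 and 3, against -0.02, 0.07 and 0.10 for the ribosomal protein genes. Overexpression replicate 1 was thus highest in the former and overexpression replicate 3 in the latter. In wild type replicates 1 and 2 both classes were low, at -0.08 and -0.06 against -0.09 and -0.06. Overexpression replicate 1 also had the fewest reads of the 6 libraries, and the part of depth in these values was not tested.

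**Figure D4:**
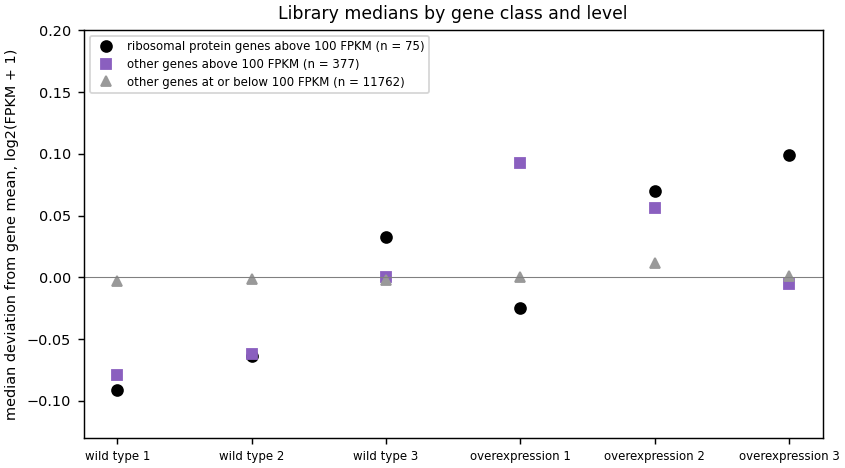
Median deviation of log2(FPKM + 1) from each gene's mean in each library, for ribosomal protein genes above 100 FPKM (black circles), other genes above 100 FPKM (purple squares) and other genes at or below 100 FPKM (grey triangles). The 2 abundant classes lie together in wild type replicates 1 and 2 and apart in overexpression replicates 1 and 3, and the grey triangles lie close to 0.

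The widest spread between libraries was in Rpl23a and Rpl35, whose groups overlapped. Over the 83 genes the highest library was at the median 1.18 times the lowest, and 78 stayed below 1.5 times. Rpl23a, a protein at the tunnel exit, was at 60.0, 53.6 and 102 FPKM in the wild type libraries and 72.3, 74.5 and 119 FPKM in the overexpression libraries. Rpl35 (ENSMUSG00000062997, chr2:39001580-39005624 in mm10), its neighbour there, was at 45.4, 39.3 and 74.9 FPKM in the wild type libraries and 59.3, 63.3 and 87.4 FPKM in the overexpression libraries. In both genes replicate 3 of each group was the highest of its group, and wild type replicate 3 exceeded overexpression replicates 1 and 2. Their ratios of highest to lowest library were 2.23 and 2.22, and the estimates 0.32 (SE 0.29) and 0.42 (SE 0.26). Exons of Rpl23a overlap those of Tlcd1 on the other strand over 59.7%, and exons of Rpl35 those of Wdr38 over 66.2%. Whether strand was used in counting is not given in the sources used here, so part of these reads is uncertain. In the small subunit Rps29 (ENSMUSG00000034892, chr12:69157722-69159186 in mm10), a zinc-binding protein of the subunit's head, was at 977, 999.8 and 1458 FPKM in the wild type libraries and 1262, 1346 and 1588 FPKM in the overexpression libraries, and Rps28 at 449, 458 and 630.0 FPKM in the wild type libraries and 555, 620.0 and 652 FPKM in the overexpression libraries. Both were low in wild type replicates 1 and 2 only, and wild type replicate 3 lay inside the overexpression range.

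Among genes with the smallest p, the groups were apart by little. Rpl37 was at 1618, 1690.2 and 1844 FPKM in the wild type libraries and 1848, 1960.1 and 2008 FPKM in the overexpression libraries, where overexpression replicate 1 was just above wild type replicate 3. Rpl30 was at 143, 145 and 165 FPKM in the wild type libraries and 170.1, 168 and 172 FPKM in the overexpression libraries, with means of 151 ± 12.1 FPKM in wild type and 170.0 ± 1.68 FPKM with overexpression (SD, n = 3). Exons of D730044K07Rik on the other strand cover 20.4% of Rpl30. Rps25, which some viruses need to start translation, was at 1476, 1510.0 and 1499 FPKM in the wild type libraries and 1618, 1720.4 and 1608 FPKM in the overexpression libraries. All 3 overexpression libraries of Rps25 were higher, with a log2 fold change of 0.14 (SE 0.06), and exons of Trappc4 and Ccdc84 on the other strand cover 17.2% and 7.66% of it. Rps14 was at 698, 706 and 686 FPKM in the wild type libraries and 746, 765 and 769.8 FPKM in the overexpression libraries, again with separate groups and an estimate of 0.13 (SE 0.06). Rps14 is the gene whose loss underlies the anaemia of the 5q- syndrome. Rps3, a protein at the entry of the mRNA channel, was at 401, 403 and 451 FPKM in the wild type libraries and 435, 473 and 498 FPKM in the overexpression libraries, with wild type replicate 3 above overexpression replicate 1. The limma adjusted p of each of these 5 was 0.842.

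The one gene with an estimate below 0 was Rpl14 (ENSMUSG00000025794, chr9:120571444-120574654 in mm10), at 1105, 1098 and 1266 FPKM in the wild type libraries and 1168, 1082 and 1084 FPKM in the overexpression libraries. Its highest value was in wild type replicate 3 and the remaining 5 overlapped. The estimate was -0.06 (SE 0.08) (limma adjusted p 0.897), and without wild type replicate 3 it was 0.01.

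Several of these proteins are also known for roles outside translation or for human disease. Rpl5 and Rpl11 form a particle with 5S RNA that binds the p53 regulator Mdm2. Rpl5 was at 399.9, 398 and 415 FPKM in the wild type libraries and 411, 434 and 453 FPKM in the overexpression libraries and Rpl11 at 292, 293 and 324 FPKM in the wild type libraries and 325, 340.1 and 354 FPKM in the overexpression libraries. In Rpl11 the groups were just apart, with wild type replicate 3 next to overexpression replicate 1, and in Rpl5 they overlapped. Their estimates were 0.10 and 0.16. Rps6, the target of the S6 kinases, was at 685, 700.3 and 785 FPKM in the wild type libraries and 749, 767 and 821 FPKM in the overexpression libraries, highest in overexpression replicate 3, with wild type replicate 3 second highest. Rps19, the gene most often mutated in Diamond-Blackfan anaemia, was at 253, 255 and 277 FPKM in the wild type libraries and 247, 270.2 and 279 FPKM in the overexpression libraries. Its wild type range lay inside the overexpression range and its estimate was 0.02 (SE 0.07), which fell below 0 under 3 other scalings of the libraries. Rpsa, also known as the laminin receptor, was at 1463, 1464 and 1568 FPKM in the wild type libraries and 1414, 1655 and 1763 FPKM in the overexpression libraries. Its lowest and highest values were both in overexpression libraries. Rps27a, made as a fusion with ubiquitin, had means of 761 ± 41.2 FPKM in wild type and 822 ± 45.2 FPKM with overexpression (SD, n = 3).

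Rows named as pseudogenes of several of these genes also held reads, and where those reads came from was not tested. Processed pseudogenes, which are copies of an mRNA inserted in the genome, can hold reads of their parent. The files list 157 rows named as pseudogenes of 50 of these genes. Together they held 2.55% of the reads of the ribosomal protein genes and these rows, and for 4 parents more than 10%. Rpl34 was at 71.8, 72.4 and 87.1 FPKM in the wild type libraries and 82.1, 79.8 and 96.2 FPKM in the overexpression libraries, whereas Rpl34-ps1 was listed at 1376, 1425 and 1210 FPKM in the wild type and 1313, 1366 and 1229 FPKM in the overexpression libraries. The rows named for Rpl34 held 68.6% of the reads of gene and rows together. For Rps2 that share was 62.6%, for Rpl3 15.2% and for Rpl23a 13.4%. How the authors assigned reads between near-identical copies is not given in the sources used here, so the levels of these 4 genes are uncertain. Pseudogenes with other kinds of names were not counted, so the shares may be too low and further genes may be affected.

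Adding the rows to their parents changed 1 of the 4 comparisons. The log2 ratio of mean scaled reads, overexpression over wild type, was 0.16 for Rpl34 alone and 0.02 with its pseudogene rows. For Rps2 it was 0.16 in both forms, for Rpl3 0.15 in both, and for Rpl23a 0.30 and 0.28. Of the 157 rows 70 passed the filter. Of these 49 had an estimate above 0 with the deposited scaling and 42 to 48 with the 3 others, their median was 0.09, and 0 passed the test (limma), with 3 (4.29%) at an unadjusted p below 0.05, beside 5.17% of all tested genes. Under the library weights 16 of the 70 passed (22.9%, beside 18.3% of all), 56 had an estimate above 0 and the median was 0.18.

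**Figure D5:**
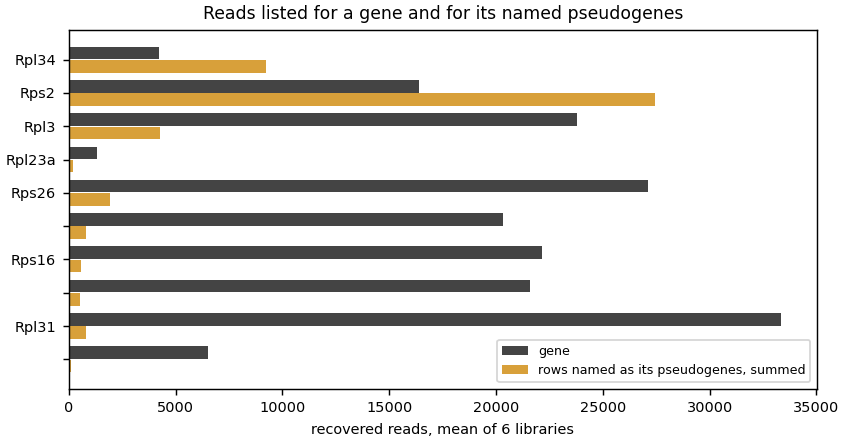
Recovered reads listed for a ribosomal protein gene (dark bars) and summed over the rows named as its pseudogenes (light bars), as the mean of 6 libraries, for the 10 genes with the largest pseudogene share, with the genes named in the text labelled. The light bar exceeds the dark one for Rpl34 and Rps2 only.

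Fau and Rack1, ribosomal proteins that the symbol rule leaves out, had estimates within the range of the class. Fau, whose protein is cut from a ubiquitin-like fusion, was at 662, 661 and 747 FPKM in the wild type libraries and 645, 708 and 733 FPKM in the overexpression libraries. Rack1, a scaffold on the small subunit, was at 488, 499 and 516 FPKM in the wild type libraries and 496, 525 and 567 FPKM in the overexpression libraries. The groups of each overlapped, with estimates of 0.01 for Fau and 0.08 for Rack1, and that of Fau fell below 0 under each of the 3 other scalings.

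Genes around the ribosomal proteins gave 0 calls in each of 5 lists (limma), with 2 genes, Ipo5 and the ETS factor Elk4, at an unadjusted p below 0.05, beside 5.17% of all tested genes. Under the library weights, where 18.3% of all genes passed, 6 of 20 chaperones, import and release factors, 3 of 19 mRNAs with a TOP tract, 1 of 16 regulators, 1 of 13 transcription factors and 0 of 3 ribosomal proteins outside the symbol rule did. Of 19 mRNAs with a known TOP tract, among them Eef1a1, Eef2, Pabpc1 and Tpt1, 19 had an estimate above 0 with the deposited scaling, with a median of 0.08, but 12 after quantile normalization, with a median of 0.01. Fau and Rack1 are among the 19. The highest of them, the elongation factor Eef1a1, was at 3609.7, 3606 and 4308 FPKM in the wild type libraries and 3597, 3933 and 4355 FPKM in the overexpression libraries, and its groups overlapped. Chaperones, import and release factors of ribosomal proteins had 17 of 20 above 0 and a median of 0.09, and 14 of 20 at equal FPKM sums. Ipo5, an importin that carries ribosomal proteins into the nucleus, was at 74.6, 75.5 and 87.3 FPKM in the wild type libraries and 92.8, 87.4 and 91.1 FPKM in the overexpression libraries, with an estimate of 0.19 and a limma adjusted p of 0.842. Among the 5 lists, regulators of TOP mRNA translation (8 of 16 above 0, median -0.002) and transcription factors of ribosomal protein promoters (5 of 13, median -0.02) had medians below that of all genes, but under the library weights the regulators' median was 0.03, above the 0.01 of all genes. Mtor was at 5.92, 5.88 and 5.49 FPKM in the wild type libraries and 6.56, 6.03 and 5.71 FPKM in the overexpression libraries and Larp1 at 41.2, 41.1 and 46.7 FPKM in the wild type libraries and 50.5, 43.6 and 40.8 FPKM in the overexpression libraries, both with overlapping groups. Myc, a transcription factor that drives ribosome production, was at 34.9, 35.6 and 42.6 FPKM in the wild type libraries and 37.9, 34.1 and 35.0 FPKM in the overexpression libraries, highest in wild type replicate 3.

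The estimates did not sort by the length of the pyrimidine run at the annotated start. A first base misplaced by more than 5 bases can hide a run, so genes with a shorter run can still have a tract. How often this happens was not tested. The medians therefore compare runs at the annotated start only, and whether the estimates follow the tract of the mRNA was not tested. The median log2 fold change was 0.10 over 24 genes with a run of at least 8, 0.10 over 39 with a shorter run and 0.10 over 20 without a start in the table. Within the large subunit the medians were 0.16 (15 genes) and 0.11 (23 genes) and within the small subunit 0.07 (9 genes) and 0.09 (16 genes). The subunits thus differed in which group was higher, and no test was made of either. Rpl35 and Rpl14, with the highest and the lowest estimate, both start in long runs, as printed above.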

How the data were processed

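The series holds 6 RNA sequencing libraries, 3 labelled wild type and 3 labelled circular RNA overexpression, with replicate numbers from the titles. Libraries were made from DNase-treated RNA with a NEBNext Ultra kit for paired-end Illumina sequencing, per the labels' protocols. Per the submitters' processing notes the build was mm10. The sources used here do not give the aligner, the counter, its strand setting or the annotation. Per the file headers, the deposited values are FPKM, and the headers do not say how the authors scaled the libraries. Symbols, exons and overlaps came from GENCODE M21 (24816 of 24938 IDs matched).

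Whole reads were recovered from the FPKM steps (tolerance 0.01 reads plus a relative 1e-08). The annotated exon length gave whole reads for 79.5% of genes, and 5106 genes needed a searched length, for which whole reads are no independent check. A gene was tested when its FPKM exceeded 1 in 3 or more libraries (12222 genes). The test was limma 3.58.1 in R 4.3.3 on log2(FPKM + 1), with trended and robust variance moderation, the group as its single term and Benjamini-Hochberg adjustment over every tested gene. On this scale the fold of a low gene comes out too small. Simulated data were used to check the script. Alternatives were other pseudocounts, filters and scalings, a replicate block, dropping each library in turn, array weights, limma-voom on recovered reads, and wild type replicates 1 and 2 averaged.

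Genes named with values were the 5 highest and 3 lowest of each subunit by mean FPKM, the 4 with the smallest p, those with an estimate below 0, the stalk genes and Rpsa, paralogs with their parents, and genes with known roles. Rpl23a, Rpl34, Rpl35, Rps2, Rps28 and Rps29, and Ipo5, Eef1a1, Mtor, Larp1, Myc and Lyz2 from the lists, were named after their values were seen. The genes and lists were chosen with earlier results of these data known. Results for some genes that enter the counts and medians are not reported here. Promoter sequences are from RefSeq on GRCm38.p6.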

Additional observations from a re-analysis of the deposited data

How the results depend on the processing

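No gene passed the threshold under other pseudocounts, filters or scalings, limma-voom or averaged wild type replicates 1 and 2. Leaving out 1 library gave 0 to 2 genes (2 without wild type replicate 3, 1 without overexpression replicate 1) and 0 ribosomal protein genes. Library weights gave 2241 genes and 47 ribosomal protein genes. Whether the replicate numbers pair the libraries was not settled. Over all tested genes, deviations of same-numbered libraries correlated at -0.10, 0.08 and 0.003. In the ribosomal protein genes both groups rose from replicate 1 to 3. Large subunit mean deviations were -0.12, -0.10 and 0.04 in wild type and 0.0006, 0.07 and 0.12 with overexpression. A limma fit with the replicate number as a block called 0 genes. It had 444 genes and 11 ribosomal protein genes at an unadjusted p below 0.05, against 632 and 2 without the block. Leaving out 1 library moved the large subunit's median log2 fold change between 0.09 and 0.14 and the small subunit's between 0.06 and 0.14. After quantile normalization the small subunit's median was 0, its count above 0 was 16 and the difference between the subunits' medians was 0.038. Single estimates close to 0 changed sign. At equal FPKM sums they were -0.054 for Fau, -0.026 for Rpl10, -0.0031 for Rpl36a, -0.020 for Rpl7, -0.016 for Rplp1, -0.035 for Rps12, -0.035 for Rps15, -0.045 for Rps19, -0.018 for Rps26 and -0.0022 for Rps4x. At equal upper quartiles they were -0.014 for Fau and -0.0053 for Rps19. After quantile normalization they were -0.082 for Fau, -0.058 for Rpl10, -0.045 for Rpl36, -0.00074 for Rpl7, -0.052 for Rps12, -0.062 for Rps15, -0.036 for Rps19, -0.053 for Rps26, -0.13 for Rps3a1 and -0.12 for Rps4x. Library weights gave -0.038 for Rpl24 and -0.0055 for Rps27rt, and averaging wild type replicates 1 and 2 gave -0.018 for Fau and -0.0017 for Rps19. Leaving out 1 library gave -0.028 to 0.070 for Fau, -0.091 to 0.012 for Rpl14, -0.058 to 0.14 for Rpl24, -0.010 to 0.15 for Rplp1, -0.0084 to 0.089 for Rps12, -0.0087 to 0.097 for Rps15 and -0.017 to 0.071 for Rps19. The cause of these changes was not tested. Depth limits Rpl3l, Rpl24 and Rps27rt, which had 7.17, 30.7 and 361 reads a library on average. Over the ribosomal protein genes together, the chi-square per gene was 10.3 between wild type replicates 1 and 2 and 39.4 to 317 between the remaining pairs. Counting error alone gives about 1. Values of single genes are not reported here.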

Other observations

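The 84 ribosomal protein genes are scattered over the genome. Chromosome 7 holds the most, with 14 of the 2034 genes listed there, among them Rpl13a, Rpl18, Rpl27a, Rpl28, Rplp2, Rps3, Rps9, Rps13, Rps15a, Rps16 and Rps19, and chromosomes 9 and 17 hold 8 each. Many introns of ribosomal protein genes carry small nucleolar RNAs, and exons of 24 of the 84 overlap an annotated one on the same strand. A gene on the opposite strand shares exonic bases with 19 of them (12 of the large subunit).

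The deposited FPKM values summed to different totals. Ribosomal protein genes took 21.2%, 21.4% and 22.2% of the sum in the wild type libraries and 20.9%, 22.4% and 23.2% in the overexpression libraries, each in replicate order. By this share overexpression replicate 1 was the lowest of all 6 libraries, whereas by its share of reads it was above wild type replicates 1 and 2.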
